A study of Rattus norvegicus with 6 samples.

Results

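S100a8 and S100a9 encode the subunits of calprotectin, and Lcn2 encodes lipocalin 2. These 3 genes, of 32623 listed in the count table, were followed in the injured rat esophagus. They were selected by Ensembl identifier: ENSRNOG00000011557 for S100a8, ENSRNOG00000011483 for S100a9 and ENSRNOG00000013973 for Lcn2. These names were supplied with the selection. The count table holds identifiers alone, and no reference used here pairs them with symbols, so the naming was not checked against another source.

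The tissue was full-thickness esophagus of male wild-type Sprague-Dawley rats, an outbred strain, aged 8 to 10 weeks. In 3 injured rats a 3D-printed device introduced through the mouth had rubbed a stretch of the esophagus. The labels give a range of 8 to 10 friction cycles and no exact number for an animal. The 3 control rats were untreated. The labels describe no sham passage of the device in the controls. All tissue was collected on day 28, and each library came from 1 animal.

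S100A8 and S100A9 are small calcium-binding proteins that pair to form calprotectin, which withholds zinc and manganese from microbes and acts as an alarm signal outside the cell. They are among the most abundant proteins of the neutrophil cytosol, and keratinocytes of stressed squamous epithelium also make them. Lipocalin 2 is a secreted protein of neutrophil granules and inflamed epithelium that captures bacterial siderophores, the carriers with which bacteria take up iron. All 3 are widely used as markers of neutrophilic inflammation.

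The regions upstream of S100a9 and Lcn2 are shown because S100a9 counts differed widely between animals and Lcn2 counts did not. Both sequences are RefSeq's, build GRCr8, which is not the build of the counts. They read 5′ to 3′ in the sense of the gene, which lies on the minus strand in both cases, and end just before its most upstream annotated start. Capitals mark matches to TATAAA, the core promoter element that helps place the start of transcription, or to TTNNGNAA, a form of the site of C/EBP factors, which act in myeloid and inflammatory gene expression.
S100a9, chr2:178490623-178490872: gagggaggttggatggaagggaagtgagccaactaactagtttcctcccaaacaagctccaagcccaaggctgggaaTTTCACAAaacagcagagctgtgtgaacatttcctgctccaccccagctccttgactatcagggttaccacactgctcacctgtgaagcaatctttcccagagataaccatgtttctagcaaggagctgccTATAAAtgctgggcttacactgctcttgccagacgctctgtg
Lcn2, chr3:36081852-36082030: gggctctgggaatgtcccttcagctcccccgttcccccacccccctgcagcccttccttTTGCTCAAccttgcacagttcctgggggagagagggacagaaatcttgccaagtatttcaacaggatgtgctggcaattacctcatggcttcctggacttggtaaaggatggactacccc

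Both strands were searched, and no matches overlapped. The S100a9 region held TATAAA, found in 12.9% of 33469 RefSeq promoter windows of the same length, and 1 C/EBP match on the opposite strand, a motif found in 37.2% of them. The Lcn2 region held 1 C/EBP match on the opposite strand, found in 30.0% of windows of its length, and no TATAAA. The AP-1 motif TGANTCA was also searched and had no match in either window. A match is a run of letters and was not tested for binding. S100a8 had no entry in the promoter table.

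S100a8 was barely detected in the control esophagus and was higher in each injured animal. Control replicates 1, 2 and 3 had 5, 1 and 5 counts, whereas injured replicates 1, 2 and 3 had 56, 985 and 53. In CPM, which sets each count against its library's TMM-adjusted size, the controls stood at 0.3, 0.0559 and 0.361 and the injured animals at 2.98, 59.8 and 3.1. The groups did not overlap, and injured replicate 2 stood 19.7-fold above the mean of the other two injured animals. The control mean was 0.239 ± 0.161 CPM and the injured mean 22 ± 32.8 CPM (SD, n = 3 each), so the injured SD exceeded the injured mean. The fitted log2 fold change, injured over control, was 6.53 (standard error 1.64, edgeR quasi-likelihood test, unadjusted p = 0.00572, adjusted p = 0.0982).

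S100a9, the partner subunit, followed the same pattern. The 3 controls had 3, 13 and 3 counts, in replicate order, and the 3 injured animals had 28, 1091 and 30. The CPM values were 0.18, 0.726 and 0.216 for the controls, against 1.49, 66.3 and 1.76 for the injured animals. Again every injured animal lay above every control, and injured replicate 2 stood 40.8-fold above the mean of the other two. The group means were 0.374 ± 0.305 CPM and 23.2 ± 37.3 CPM (SD, n = 3 each). The fitted log2 fold change was 5.88 (standard error 1.83, edgeR quasi-likelihood test, unadjusted p = 0.0153, adjusted p = 0.142).

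Lcn2 had similar counts in both groups. The controls had 25, 33 and 19 counts, in replicate order, and the injured animals 22, 35 and 23. Control values were 1.5, 1.84 and 1.37 CPM and injured values 1.17, 2.13 and 1.35 CPM, with overlapping groups. The means were 1.57 ± 0.244 and 1.55 ± 0.508 CPM (SD, n = 3 each). The fitted log2 fold change was -0.03, standard error 0.36, with a 95% interval of -0.88 to 0.83 (edgeR quasi-likelihood test, adjusted p = 0.974), and it was 0.05, of the opposite sign, with scaling by library size alone. Injured replicate 2 was again the highest of its group, at 1.69-fold the mean of the other two. In bulk tissue, a different number of cells of a type and a different amount of RNA per cell cannot be told apart for any of these genes.

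**Figure D1:**
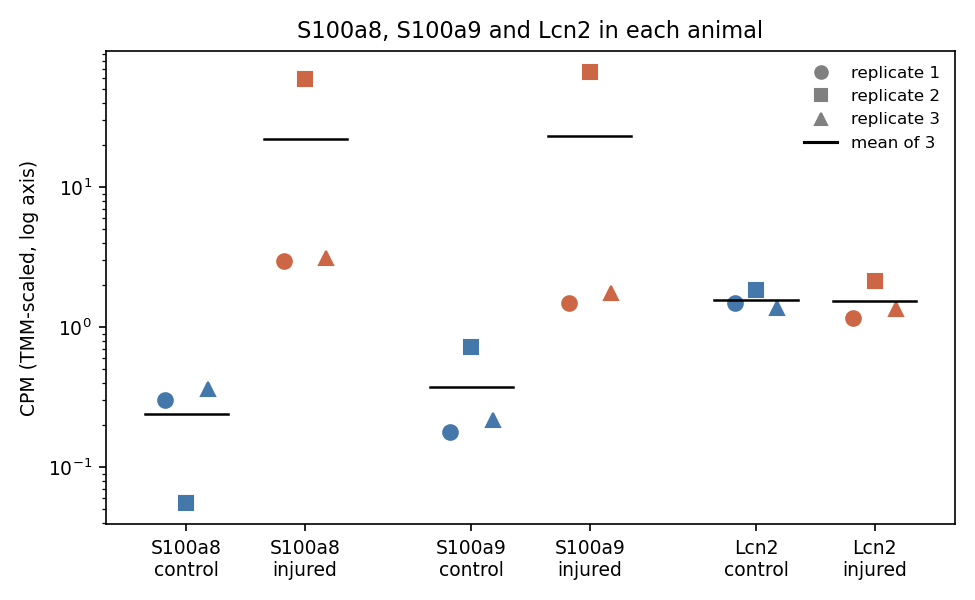
CPM (TMM-scaled, log axis) of S100a8, S100a9 and Lcn2 in each animal, with controls in blue, injured animals in orange, a symbol for each replicate number and a black line at the mean of 3. Injured replicate 2 (square) stands at 59.8 CPM for S100a8 and 66.3 CPM for S100a9, far above the other injured animals, while the Lcn2 values of both groups lie between 1.17 and 2.13 CPM; CPM is not corrected for gene length, so heights are comparable within a gene only.

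None of the 3 genes passed the test at an adjusted p under 0.05 with edgeR, where 0.711% of the 14481 tested genes were called higher and 0.642% lower. At an unadjusted p under 0.05, S100a8 and S100a9 were higher in injured animals, as were 9.98% of all tested genes. Injured and control values did not overlap in the same pair of genes, and 13.5% of all tested genes had every injured animal above every control. A fitted log2 fold change as large as that of S100a8 or larger was found in 12 tested genes, S100a8 included, 0.0829% of the total. The S100a8 value fell to 3.67 without injured replicate 2, and no share was taken at that level. S100a8 passed the filter on low counts through the injured libraries alone. No control library reached the minimum of 10 counts for S100a8, and 1 did for S100a9, so both genes entered the test through the injured libraries.

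With the replicate number as a block, S100a9 passed the test and S100a8 did not. S100a9 had a log2 fold change of 5.43 (standard error 0.77, edgeR, adjusted p = 0.0358), and S100a8 one of 5.83 (standard error 1.22, edgeR, adjusted p = 0.0654). In that fit 1.98% of tested genes were called higher. DESeq2 gave neither gene a p-value, because the Cook's distance of injured replicate 2, a measure of how far 1 library pulls the fit, was 26 for S100a8 and 30.4 for S100a9 against a limit of 18. Without that limit, a setting added after the data were seen, both were called higher (DESeq2, adjusted p = 0.000519 for S100a8 and 0.0061 for S100a9), in a fit that called 4.72% of its genes higher. Limma-voom called neither gene and called 0.38% of all tested genes higher. Its log2 fold changes were smaller, at 5.2 for S100a8 (adjusted p = 0.366) and 3.93 for S100a9 (adjusted p = 0.468), and with sample weights they were 4.3 (limma, adjusted p = 0.326) and 3.56 (limma, adjusted p = 0.426).

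Besides the choice of fit, the size of the difference depended on injured replicate 2. Without it, the log2 fold change was 3.67 for S100a8 (standard error 0.65, edgeR, unadjusted p = 0.00146, adjusted p = 0.141) and 2.07 for S100a9 (standard error 0.68, edgeR, unadjusted p = 0.0239, adjusted p = 0.259). Without any other single library it stayed between 6.02 and 7.05 for S100a8 and between 5.51 and 6.81 for S100a9, with no call in any of these fits. Lcn2 was at -0.32 without injured replicate 2 and between -0.11 and 0.14 without another library.

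**Figure D2:**
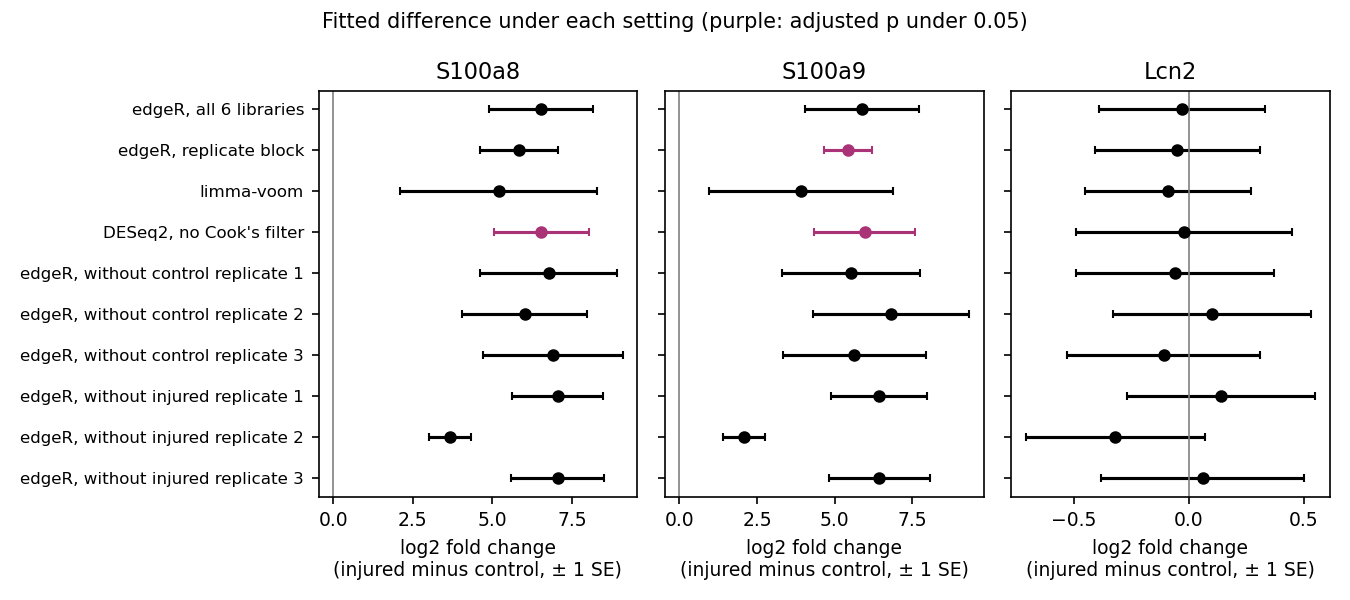
Log2 fold change of injured over control with 1 standard error for S100a8, S100a9 and Lcn2 (panels with separate horizontal scales) under 4 fits to all 6 libraries and 6 fits that leave out 1 library each. The S100a8 and S100a9 estimates are 3.67 and 2.07 without injured replicate 2, and purple points mark an adjusted p under 0.05, which S100a9 reached with the replicate block and both genes with DESeq2 without the Cook's distance limit.

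Summed counts gave the same picture, with counting error alone. For S100a8, 1094 counts in injured against 11 in control libraries gave a ratio of 92.1 after scaling to library size (95% exact interval 51.3 to 185). Without injured replicate 2 the ratio was 13.4 (7.2 to 27.6). For S100a9, 1149 against 19 counts gave a ratio of 56 (35.7 to 93.3), and without that animal 58 counts remained and the ratio was 4.12 (2.42 to 7.33). Without that animal, left out because of its high counts, both intervals still lay above equal levels. They cover counting error alone and hold no spread between animals, and edgeR without that animal called neither gene. Lcn2 had 80 counts in injured and 77 in control libraries, a ratio of 0.962 (0.695 to 1.33).

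In injured replicate 2, few transcripts stood as far above the other injured animals as the calprotectin pair did. Levels in this library were compared with the mean of injured replicates 1 and 3 on a log2(CPM + 0.5) scale. The comparison covered 13659 genes with at least 1 CPM on average. S100a9 ranked 1 with a log2 difference of 4.97 and S100a8 ranked 2 with 4.09, while Lcn2 ranked 905 with 0.58. The ranking runs from the highest difference down, and at its other end 1 gene lay between -5 and -4.75. S100a9 reached the average through injured replicate 2, at 66.3 CPM against 0.18 to 1.76 CPM in the other libraries. It thus entered the ranking through the value that was ranked. Only 4 of these genes stood at least 8-fold above the other injured animals in that library. The same count was 1 for injured replicate 1, 1 for injured replicate 3, 4, 25 and 1 for control replicates 1 to 3.

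The other two of those 4 genes, named here after their values were seen, carry no symbol in the files. ENSRNOG00000014441 had control counts of 2, 6 and 0 and injured counts of 23, 5407 and 706. ENSRNOG00000004470 had control counts of 0, 13 and 15 and injured counts of 9, 154 and 8. Like S100a9, it reached the average of 1 CPM through injured replicate 2, the library that was ranked. Neither ENSRNOG00000014441 nor ENSRNOG00000004470 passed the test (edgeR, adjusted p = 0.0934 and 0.361). The library of injured replicate 2 held 15949379 counts, within the range of 14181903 to 18376578 over all libraries. Cell type markers cannot be set beside the calprotectin level of this animal, since no marker gene could be matched to an identifier.

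**Figure D3:**
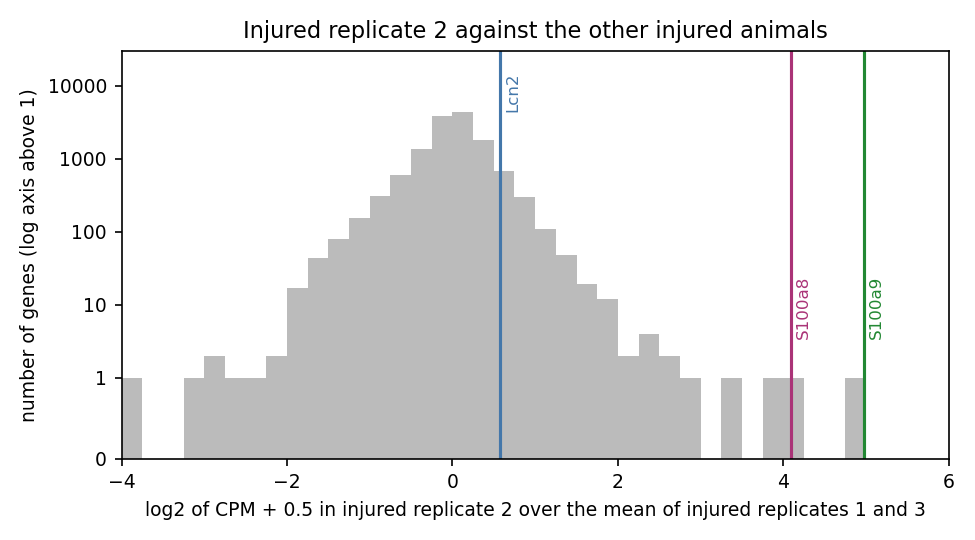
Number of genes (log axis above 1) by the log2 difference between injured replicate 2 and the mean of injured replicates 1 and 3, computed on CPM + 0.5 over 13659 genes. Coloured lines mark the 3 genes: S100a9 at 4.97 and S100a8 at 4.09 stand at the right end of the distribution. Lcn2 at 0.58 lies on its upper side, at rank 905. The horizontal axis starts at -4 and so leaves out 1 gene between -5 and -4.75.

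The spread of the calprotectin genes among injured animals was among the widest in the table. This restates the height of injured replicate 2, through which S100a9 also entered the genes compared, and is no separate observation. The coefficient of variation (SD over mean) among injured animals was 149% for S100a8 and 161% for S100a9, against a median of 12.4% over the 13659 genes. Only 6 genes had a higher value than S100a8 and 1 a higher value than S100a9. Among controls the coefficients were 67.6% and 81.6% against a median of 16.6%, at counts so low that counting error alone is large. Lcn2 varied by 32.8% among injured animals and 15.5% among controls.

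Within the injured animals, where both genes were better counted, the ratio of S100a9 to S100a8 counts lay between 0.5 and 1.11. The ratio of S100a9 to S100a8 counts was 0.5, 1.11 and 0.566 for injured replicates 1, 2 and 3, against 0.6, 13 and 0.6 for the controls in the same order. Gene length cancels when this ratio is compared between libraries. The S100a8 share of the summed subunit counts was 66.7% (95% exact binomial interval 55.5% to 76.6%) in injured replicate 1 and 63.9% (52.6% to 74.1%) in injured replicate 3. In injured replicate 2 the share was 47.4% (45.3% to 49.6%), below the other injured animals by more than counting error. These intervals hold no spread between animals, and the injured libraries differed over all genes by 17 to 64.3 chi-square per degree of freedom.

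Control replicate 2 lay outside the range of the injured animals. It had 1 S100a8 count against 13 S100a9 counts, a share of 7.14% (0.181% to 33.9%), whereas control replicates 1 and 3 had 5 of 8 counts each, 62.5% (24.5% to 91.5%). The mean log2 ratio of S100a9 to S100a8 was -0.56 ± 0.62 in injured and 0.74 ± 2.56 in control animals (SD, n = 3 each), a difference of -1.30 (two-sided exact permutation test, p = 0.5). Without control replicate 2 the difference was 0.18, so its sign rests on that library.

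The ratios of Lcn2 to the subunits restate the higher subunit counts of the injured animals, since Lcn2 itself was at similar levels in both groups, and are no separate evidence of a difference. The ratio of Lcn2 to S100a8 counts was 5, 33 and 3.8 for the controls, in replicate order, and 0.393, 0.0355 and 0.434 for the injured animals. The ratio of Lcn2 to S100a9 was 8.33, 2.54 and 6.33 for the controls, against 0.786, 0.0321 and 0.767 for the injured animals. For both ratios every injured animal lay below every control. The mean log2 ratio was lower in injured animals by a difference of -5.55 against S100a8 and -4.25 against S100a9, and of -4.37 and -2.72 without injured replicate 2. Both tests gave p = 0.1 (two-sided exact permutation test, 0.15 after Benjamini-Hochberg adjustment over 3 ratios), the smallest value that 3 animals against 3 allow.

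**Figure D4:**
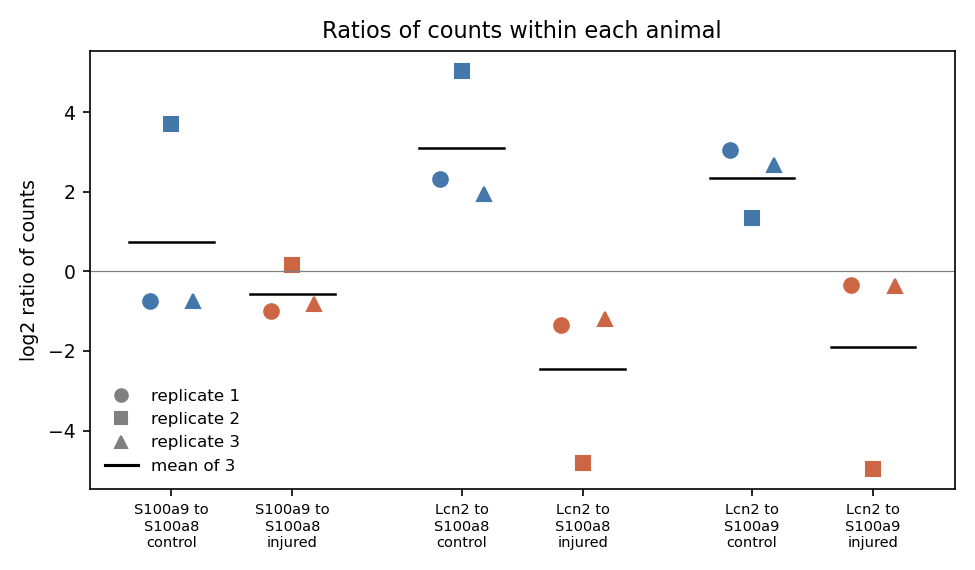
Log2 ratio of counts within each animal for S100a9 to S100a8, Lcn2 to S100a8 and Lcn2 to S100a9, with controls in blue, injured animals in orange and a black line at the mean of 3. The S100a9 to S100a8 ratio overlaps between the groups, with control replicate 2 apart at 3.7, while both Lcn2 ratios are lower in every injured animal than in every control.

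Across the 6 libraries the log2 CPM of S100a8 and S100a9 had a Pearson correlation of 0.919, given as a description of points that share groups and libraries. By that measure S100a9 ranked 217 of 13658 genes in likeness to S100a8, and S100a8 ranked 122 in likeness to S100a9. Lcn2 correlated at 0.294 with S100a8 and 0.596 with S100a9. A correlation of at least 0.9 with both calprotectin genes was found for 83 of 13656 other genes. The 2 genes with the highest average correlation to the 3 were ENSRNOG00000019099 (0.847) and ENSRNOG00000039204 (0.836). ENSRNOG00000019099 had control counts of 20, 22 and 15 and injured counts of 23, 36 and 24. ENSRNOG00000039204 had control counts of 15, 15 and 8 and injured counts of 15, 47 and 17. Both were highest in injured replicate 2, as were all 3 members, which a choice by correlation with them makes likely. Neither passed the test (edgeR, adjusted p = 0.501 and 0.364).

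The lists of receptors, inducing cytokines, neutrophil and epithelial markers and other S100 genes could not be counted, because 0 of the 32623 identifiers matched the reference gene table. For the same reason the labelled tissue was not checked against esophageal markers.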

How the data were processed

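The deposited values are raw whole-number counts of 6 libraries, 1 per animal. The submitters' processing notes name HISAT2 2.2.1 and HTSeq 0.6.1, besides fastp 0.24.1, bcl2fastq 2.20.0.422 and DESeq2 1.50.2, and genome build Rnor_6.0. Settings not given in the sources used here are the annotation release, strand and treatment of multi-mapped reads. If the counting dropped or shared multi-mapped reads, similar S100 genes could be affected.

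Libraries held 14181903 to 18376578 counts. The filterByExpr function of edgeR 4.0.16 (R 4.3.3, minimum count 10, minimum total 15) kept 14481 genes. TMM scaling (trimmed mean of M-values) was used, and counts were tested with edgeR's quasi-likelihood F test, group as the only term, with Benjamini-Hochberg adjustment over all tested genes. Standard errors are the absolute log2 fold change over the square root of F. The test was checked on simulated counts. The simulation set no single library apart, so it did not check the test for a pattern like that of injured replicate 2. Ratios within libraries used exact permutation tests (scipy 1.17.1). Correlations used log2 CPM with a prior count of 2. Genes named as most alike were the 2 with the highest mean correlation to the 3 members.

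Same-numbered control and injured libraries deviated together for numbers 1 and 2, with correlations of 0.366 and 0.365 over tested genes. The highest correlation with another number was 0.067 for number 1 and 0.018 for number 2. Number 3 was barely apart, at 0.104 against 0.067. Deviations were taken from the mean of each group, so a positive same-number correlation forces the others lower on average. The values for other numbers are thus no separate contrast. All 3 same-number correlations were positive, with that of number 3 the lowest. No label gives a reason. The fit with the replicate block is printed where it changes a call, because the libraries of numbers 1 and 2 deviated together. Number 3 gives little ground for it. Alternatives were 4 other scalings, robust edgeR, limma-voom 3.58.1 (also with weights per sample), DESeq2 1.42.0, 2 filters, the block and each library left out. Intervals on counts cover counting error only. The members and lists were chosen with earlier results of these data known.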

Additional observations from a re-analysis of the deposited data

How the results depend on the processing

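S100a8 and S100a9 stayed higher in injured animals in all 18 alternative fits, as groups that do not overlap make likely, and both were uncalled in every fit except those named here (DESeq2 as planned gave them no p-value). The replicate block called S100a9 (log2 fold change 5.43), and DESeq2 without the Cook's distance limit, added after the data were seen, called S100a8 (6.54) and S100a9 (5.96). Leaving out 1 library gave 3.67 to 7.05 for S100a8 and 2.07 to 6.81 for S100a9, the lowest without injured replicate 2. Lcn2 was never called. Its sign changed with scaling by library size alone (0.05) and over the fits without 1 library (-0.32 to 0.14). The log2 ratio of S100a9 to S100a8 ran from -2.04 to 0.18 without 1 library. Both Lcn2 ratio differences stayed negative in all 9 alternatives each, as groups that do not overlap make likely. With the replicate block the mean differences are -1.30, -5.55 and -4.25 by construction, and each has p = 0.25 (exact sign-flip test), the smallest that 3 pairs allow. Genes called higher and lower over the whole table numbered 103 and 93 with edgeR, 287 and 259 with the block, 756 and 641 with DESeq2, 761 and 648 without its Cook's distance limit, and 344 and 494 with weighted limma-voom. Plain limma-voom called 55 higher and 69 lower, and scaling by library size alone gave 129 and 67. Without 1 library the numbers spanned 2 to 134 and 0 to 200. The cause of these shifts was not tested. With 11 and 19 counts in all controls, the control levels of S100a8 and S100a9 are the least certain values here.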
